A study of Homo sapiens with 9 samples.

Results

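The miR-26 and miR-101 families were followed in a human T cell line through the first hours of activation. The members were 7 mature miRNAs, taken by name: hsa-miR-26a-5p, hsa-miR-26a-1-3p, hsa-miR-26a-2-3p, hsa-miR-26b-5p, hsa-miR-26b-3p, hsa-miR-101-3p and hsa-miR-101-5p, written below without the species prefix. They fill 9 of the 2883 rows of the count table, because miR-26a-5p and miR-101-3p are each listed under 2 precursors, and they are 7 of its 2654 mature names. The cells were Jurkat clone E6-1, an established T lymphoblast line that stands for a single leukaemic clone and not for primary T cells. Small RNA was sequenced at 0 h (control cells, not activated), and after 5 h and 12 h on plates coated with antibody to CD3 (10 µg/mL) with antibody to CD28 (5 µg/mL) in the medium. Each time had 3 biological replicates. No control cells were sampled at 5 h or 12 h, so activation and time in culture cannot be told apart.

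A miRNA is cut from a hairpin precursor, and usually one arm of the hairpin is loaded into an Argonaute protein while the opposite arm is degraded. The loaded arm finds target mRNAs through its seed, bases 2 to 8 counted from the 5′ end. The miR-26 hairpins lie in introns of the CTDSP genes, which encode small phosphatases of the RNA polymerase C-terminal domain. miR-26a and miR-101 are both known for repressing EZH2, the histone methyltransferase of a Polycomb repressive complex, and miR-101 has been linked to control of the costimulatory receptor ICOS in T cells.

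The mature sequences are shown because the seed groups the members and because members that differ by few bases have to be told apart by single reads. They are from RefSeq (GRCh38.p14), 5′ to 3′, with the seed in capitals. All 7 members were found there by name.
miR-26a-5p: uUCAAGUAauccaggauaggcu
miR-26b-5p: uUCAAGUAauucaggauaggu
miR-101-3p: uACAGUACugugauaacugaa
miR-26a-1-3p: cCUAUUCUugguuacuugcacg
miR-26a-2-3p: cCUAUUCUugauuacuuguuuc
miR-26b-3p: cCUGUUCUccauuacuuggcu
miR-101-5p: cAGUUAUCacagugcugaugcu

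miR-26a-5p and miR-26b-5p share the seed UCAAGUA. Over the 21 positions they have in common they differ at 2, written from miR-26a-5p to miR-26b-5p and counted from the 5′ end as C11U and C21U. miR-101-3p has a different seed, ACAGUAC, that no other mature miRNA of the RefSeq table holds. The opposite arms miR-26a-1-3p and miR-26a-2-3p share a seed as well and differ at 5 of 22 positions (G11A, C19U, A20U, C21U and G22C), whereas miR-26b-3p differs from miR-26a-1-3p inside the seed (A4G) and at 7 of 21 positions in all. Among the members, all 3 abundant arms begin with U and all 4 opposite arms with C; miR-101-2-5p, an opposite arm that is no member, begins with U. Of 2370 mature names in the RefSeq table with at least a full seed, 36.8% begin with U and 21.8% with C.

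The hairpins are shown because 2 of the mature members can come from either of 2 loci. Capitals mark the annotated arms.
MIR26A1: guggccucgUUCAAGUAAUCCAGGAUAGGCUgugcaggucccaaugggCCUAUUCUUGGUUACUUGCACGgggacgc
MIR26A2: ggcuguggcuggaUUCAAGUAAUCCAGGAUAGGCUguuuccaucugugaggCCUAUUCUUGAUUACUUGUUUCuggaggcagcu
MIR26B: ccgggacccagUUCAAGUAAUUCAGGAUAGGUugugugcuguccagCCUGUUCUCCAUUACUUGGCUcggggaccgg
MIR101-1: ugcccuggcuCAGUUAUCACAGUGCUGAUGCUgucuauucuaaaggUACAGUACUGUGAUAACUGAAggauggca
MIR101-2: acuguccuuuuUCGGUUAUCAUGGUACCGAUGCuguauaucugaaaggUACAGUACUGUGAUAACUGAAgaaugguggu

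MIR26A1 lies at chr3:37969404-37969480 on the plus strand, in an intron of CTDSPL. MIR26A2 lies at chr12:57824609-57824692 on the minus strand, in an intron of CTDSP2. MIR26B lies at chr2:218402646-218402722 on the plus strand, in an intron of CTDSP1. MIR101-1 lies at chr1:65058434-65058508 on the minus strand, and GENCODE 29 lists no other gene over it. MIR101-2 lies at chr9:4850297-4850375 on the plus strand, in an intron of RCL1, with the antisense gene AL158147.1 on the other strand. The miR-26 hairpins carry the abundant arm on their 5′ side and the miR-101 hairpins on their 3′ side. The 2 miR-26a hairpins are identical over the 22 bases of miR-26a-5p and 2 bases beyond, and the 2 miR-101 hairpins over a run of 27 bases that holds the 21 of miR-101-3p. A read inside these runs fits both loci. The opposite arms differ between loci, and the 5p arm of MIR101-2 has its own name, miR-101-2-5p.

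Total counts of the table were 6631839 to 16207031 per library, in which a name with several precursor rows counts more than once. With each mature name counted once they were 4232272 to 10450005. Shares of all counts given below use these smaller totals and so lie above the CPM values. Levels are given as CPM (each count scaled to the library's total in the table and corrected by TMM factors), and 3 counts in a library correspond to 0.176 to 0.471 CPM. Of 6 blood and T lineage miRNAs, all were present at every time, with a summed level of 58346 to 80871 CPM per library. The largest part was miR-181a-5p, with group means of 29959, 26372 and 32347 CPM at 0 h, 5 h and 12 h. The lowest of the 6 was miR-150-5p, with 271, 259 and 246. Of 11 miRNAs of other cell types, the summed level was 210 to 339 CPM per library and miR-1-3p, miR-133a-3p, miR-124-3p and miR-144-5p were at 0 counts in all 9 libraries. Others of that list were present in every library, such as miR-223-3p, with group means of 120, 133 and 149 CPM, and miR-200c-3p, with 93.3, 113 and 103. miR-122-5p averaged 1.40, 23.0 and 7.93 CPM at the 3 times, and 1139 of its 1163 counts at 5 h came from 1 library. The part of such RNA in the results was not tested. miR-132-3p, named as a check, rose from 442 ± 39.9 CPM in control cells to 3192 ± 294 after 5 h and 3532 ± 136 after 12 h (SD, n = 3, edgeR adjusted p = 3.19e-12 and 1.48e-12 against 0 h). For this rise too, activation and time in culture cannot be told apart. Replicate 3 of 0 h and replicate 3 of 12 h were the shallowest libraries.

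The abundant arms of miR-26 were among the most frequent miRNAs of these cells, whereas miR-101-3p was far rarer. Averaged over all 9 libraries, miR-26a-5p held 20130 ± 1180 CPM and ranked 9 of the 1098 mature names above 0. miR-26b-5p held 16343 ± 1583 CPM and ranked 13. miR-101-3p held 27.8 ± 5.79 CPM and ranked 180 (SD, n = 9 for each, with the row of highest total for a name that has several). miR-26b-5p was thus 589-fold above miR-101-3p, taken from 1 of its 2 rows, and their ranges over the libraries did not overlap. With both rows of miR-101-3p summed the ratio would be lower. miR-26a-5p was higher than miR-26b-5p in 9 of 9 libraries, by 1.23-fold on the means, although the ranges over libraries overlapped. This takes miR-26a-5p from 1 of its 2 rows. Whether the deposited counting entered a read on both rows or divided reads between them is not stated; with the rows summed, as divided reads would need, miR-26a-5p averaged 41511, 40749 and 38421 CPM at the 3 times and its ratio to miR-26b-5p would be higher. Levels of different miRNAs also depend on how well each sequence is ligated and amplified, which was not tested.

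The opposite arms were near the limit of detection. miR-26b-3p averaged 2.14 CPM over the 9 libraries, miR-101-5p 1.15, miR-26a-1-3p 0.762 and miR-26a-2-3p 0.0682. miR-101-3p was 12.9-fold above miR-26b-3p, and the ranges of these neighbours did not overlap. Each of the 4 opposite arms had libraries at 0, so their ranges had to overlap and do not order them. By library, miR-26b-3p exceeded miR-101-5p in 5 of 9, and miR-101-5p exceeded miR-26a-1-3p in 3. The order of these 3 arms is therefore not resolved. miR-26a-2-3p had the fewest counts, 7 from 2 libraries.

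**Figure D1:**
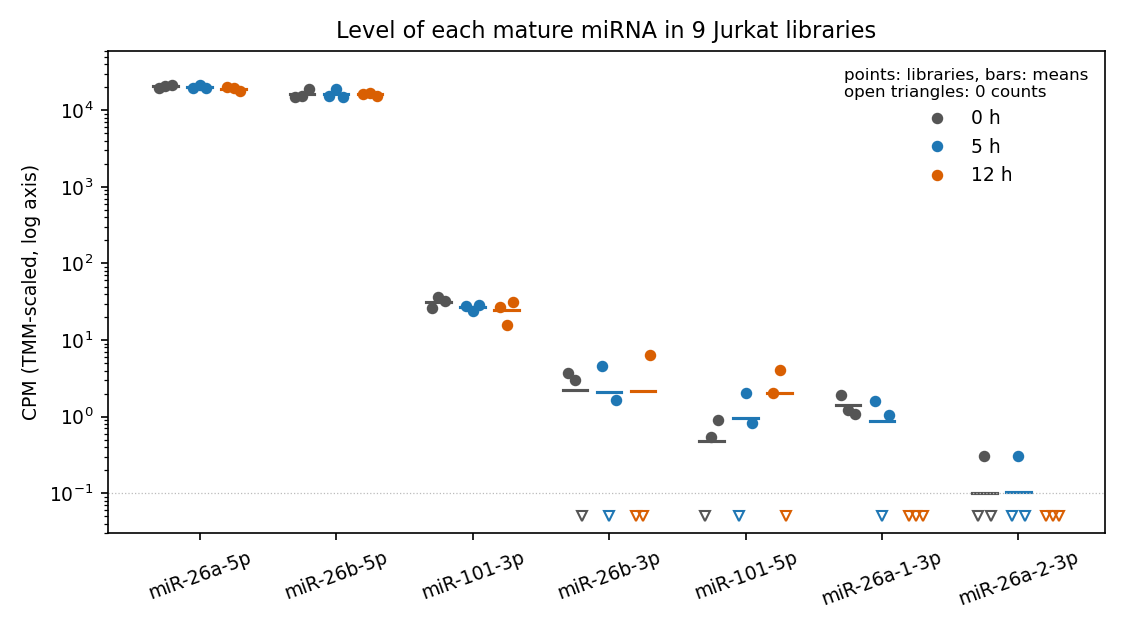
CPM of each member (TMM-scaled, log axis) in each of 9 libraries by time, with bars at the means of 3 libraries and open triangles for libraries with 0 counts. miR-26a-5p and miR-26b-5p lie between 14992 and 21729 CPM, miR-101-3p between 15.9 and 36.2, and each opposite arm has libraries at 0.

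As seeds, miR-26 ranked higher than as single miRNAs. With each mature name counted once, miR-26a-5p and miR-26b-5p together made up 5.70% ± 0.228 of all counts in control cells, 5.81% ± 0.318 after 5 h and 5.56% ± 0.496 after 12 h (SD, n = 3). This placed UCAAGUA sixth by mean share (5.69%, rank 6 of 815 seeds above 0 among the 2365 names with a RefSeq sequence), behind GAGGUAG of the let-7 family with 38.8% and ahead of AGUGCAA of miR-130 and miR-301 with 1.55%. The other mature miRNAs with the miR-26 seed, miR-1297 and miR-4465, had 0 counts in all 9 libraries. miR-101-3p alone carried ACAGUAC, which held 0.00433% of the counts. miR-144-3p, whose seed differs from that of miR-101-3p by C8U alone, had 2 counts, both in replicate 2 of 5 h.

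miR-26a-5p, the most abundant member, was at similar levels at the 3 times. In replicates 1, 2 and 3 of the control cells it stood at 19782, 20816 and 21716 CPM. After 5 h the values were 19712, 21729 and 19742, and after 12 h 19968, 19819 and 17887. These are levels in bulk RNA, in which fewer cells holding a miRNA and less of it per cell cannot be told apart. The groups overlapped at every time, and the lowest value was in the shallowest library, replicate 3 of 12 h. The log2 fold change was -0.03 (SE 0.10) at 5 h and -0.11 (SE 0.10) at 12 h against 0 h, and -0.09 (SE 0.10) between 12 h and 5 h (edgeR quasi-likelihood test, n = 3, adjusted p = 0.996, 0.965 and 1). The 95% intervals of the fold ran from 0.850 to 1.13 at 5 h, from 0.801 to 1.07 at 12 h and from 0.816 to 1.09 between 12 h and 5 h. A 2-fold change in either direction lay outside each of these intervals.

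miR-26b-5p, with the same seed, was likewise at similar levels at the 3 times. Its replicates stood at 14992, 15589 and 18952 CPM at 0 h, at 15242, 18873 and 15003 at 5 h, and at 16215, 16920 and 15303 at 12 h. A single library was high at 0 h (replicate 3) and at 5 h (replicate 2), and the groups overlapped. The log2 fold change was -0.01 (SE 0.12) at 5 h, -0.03 (SE 0.12) at 12 h and -0.02 (SE 0.12) between 12 h and 5 h (edgeR, n = 3, adjusted p = 0.996, 0.992 and 1). The intervals of the fold were 0.835 to 1.18, 0.824 to 1.16 and 0.831 to 1.17. Without replicate 3 of 0 h the log2 change at 5 h was 0.10 and at 12 h 0.08, on the other side of 0.

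The balance between the miR-26 paralogues was narrow. miR-26b-5p made up 43.1%, 42.8% and 46.6% of the counts of both in replicates 1, 2 and 3 of 0 h. The share was 43.6%, 46.5% and 43.2% at 5 h, and 44.8%, 46.1% and 46.1% at 12 h. The means were 44.2% ± 2.10, 44.4% ± 1.80 and 45.7% ± 0.733 (SD, n = 3), and the ranges of the 3 times overlapped. The share takes miR-26a-5p once; where both of its precursor rows were added up, it came to 28.4%, 28.6% and 29.6%.

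miR-101-3p was also at similar levels at the 3 times, with less precision. On the MIR101-2 row it had 413, 474 and 215 counts (26.6, 36.2 and 32.8 CPM) in the replicates of 0 h, 300, 230 and 492 counts (28.0, 23.6 and 28.9 CPM) at 5 h, and 359, 189 and 198 counts (26.8, 15.9 and 31.1 CPM) at 12 h. Replicate 2 of 12 h was the lowest of the 9 libraries, and the groups overlapped. The log2 fold change was -0.25 (SE 0.29) at 5 h, -0.37 (SE 0.29) at 12 h and -0.13 (SE 0.29) between 12 h and 5 h (edgeR, n = 3, adjusted p = 0.996, 0.915 and 1). The intervals of the fold were 0.554 to 1.28, 0.506 to 1.18 and 0.601 to 1.39. Without replicate 2 of 12 h the change was -0.16 at 12 h against 0 h and 0.11 between 12 h and 5 h.

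The precursor rows of the 2 shared arms differed in how closely they matched. For miR-26a-5p the MIR26A1 row was 99.8% to 99.9% of the MIR26A2 row in every library, a difference of 152 to 538 counts. For miR-101-3p the MIR101-1 row was 87.7%, 75.3% and 93.0% of the MIR101-2 row in the replicates of 0 h. It was 83.0%, 91.7% and 82.3% at 5 h, and 89.7%, 61.4% and 89.9% at 12 h, so the MIR101-2 row was the higher in 9 of 9 libraries, by 15 to 117 counts. In percent the rows were farthest apart in replicate 2 of 12 h, where miR-101-3p was lowest (189 and 116 counts). In counts they were farthest apart in replicate 2 of 0 h (474 and 357). The rule that gave a read to one or both loci is not given in the sources used here, and these rows do not measure the output of either locus. On the MIR101-1 row the log2 change was -0.24 (SE 0.34) at 5 h and -0.39 (SE 0.34) at 12 h (edgeR adjusted p = 0.996 and 0.965). The 95% interval of its fold at 12 h ran from 0.465 to 1.25, so a 2-fold drop lay inside it.

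**Figure D2:**
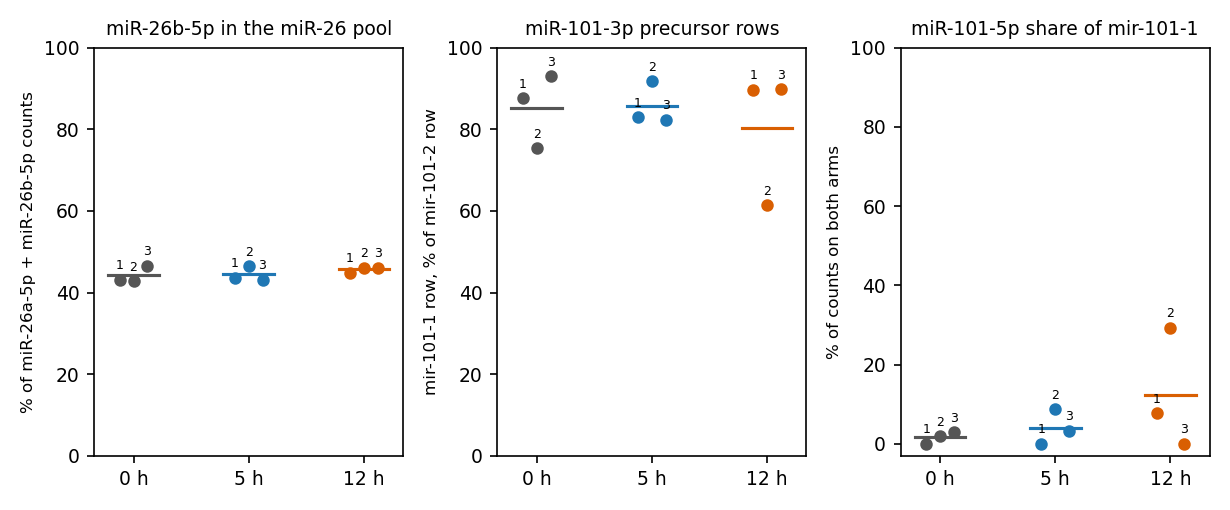
Percentages within each library, with points labelled by replicate and bars at the means: miR-26b-5p in the sum of both miR-26 5p arms, the MIR101-1 row of miR-101-3p relative to the MIR101-2 row, and miR-101-5p in the counts on both arms of MIR101-1. The miR-101-3p counts on the MIR101-1 row can come from either locus. The first stays between 42.8% and 46.6%, while replicate 2 of 12 h is the lowest point in the middle panel (61.4%) and the highest on the right (29.3%).

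The opposite arms showed which locus gave reads, because their sequences differ. Over all 9 libraries the MIR26A1 arm miR-26a-1-3p had 88 counts and the MIR26A2 arm miR-26a-2-3p had 7, from 2 libraries (4 counts in replicate 2 of 0 h and 3 in replicate 2 of 5 h). The MIR101-1 arm miR-101-5p had 122 counts and the MIR101-2 arm miR-101-2-5p had 15, from 3 libraries. These sums hide differences between times: at 0 h miR-101-5p had 13 counts and miR-101-2-5p 10, while 75 of the 122 counts of miR-101-5p came from 12 h, 48 of them from 1 library, where miR-101-2-5p had 0. In replicate 1 of 5 h miR-101-5p had 0 counts and miR-101-2-5p 5. Counts of different sequences are not on 1 scale, so these numbers do not rank the loci by transcription.

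The share of the opposite arm was lower in miR-26 than in miR-101 on the means, but not in every library. Only for MIR26B is this a share within a single hairpin. On MIR26A1, MIR101-1 and MIR101-2 the row of the abundant arm can hold reads from the other locus. Their shares are therefore not on the same scale as that of MIR26B. miR-26b-3p made up 0.0141% of the counts on both arms of MIR26B, averaged over 9 libraries (highest 0.0420%), and miR-26a-1-3p made up 0.00378% on MIR26A1 (highest 0.00977%). miR-101-5p made up 5.98% on MIR101-1, with a range from 0% to 29.3% and a median of 2.91%. The highest value came from replicate 2 of 12 h, with 48 counts of miR-101-5p and 116 of miR-101-3p on that row. miR-101-2-5p made up 0.524% on MIR101-2, with a median of 0% and counts in 3 of 9 libraries. In the 3 libraries where miR-101-5p was at 0%, miR-26b-3p made up 0.0244%, 0.0300% and 0.0420% on MIR26B.

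miR-26a-1-3p was the only member whose groups did not overlap in a comparison, 12 h against 0 h, as in 12.1% of all rows tested. It passed the filter on low counts through its 0 h and 5 h libraries alone. It had 30, 16 and 7 counts (1.93, 1.22 and 1.07 CPM) in the replicates of 0 h and 17, 0 and 18 counts (1.59, 0 and 1.06 CPM) in those of 5 h. All 3 libraries of 12 h had 0 counts. Against the level of 3 counts over the 12 h group (0.0949 CPM), the pooled level at 0 h of 1.51 CPM was 15.9-fold higher. This bound covers counting error only. The edgeR fit gave a 95% interval of the fold from 1.04e-04 to 0.556 at 12 h against 0 h. With every 12 h library at 0, the fitted value and this interval depend on the prior count. The lower limit lies below what 3 counts over the 12 h group can show. miR-26a-1-3p did not pass the test. The edgeR adjusted p was 0.661 at 12 h against 0 h (0.0284 before adjustment) and 0.720 against 5 h (0.0395 before adjustment). Over the alternatives in which it was tested, the lowest adjusted p of the first comparison was 0.182. Of the 701 rows tested, 7 had 0 counts in all 12 h libraries and some in all 0 h libraries, and 4 had the reverse.

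miR-26b-3p was present or absent by library and not by time. It had 57, 39 and 0 counts in the replicates of 0 h, 49, 0 and 28 in those of 5 h, and 0, 0 and 41 in those of 12 h. The log2 change was -0.11 (SE 1.85) at 5 h and -0.09 (SE 1.86) at 12 h (edgeR adjusted p = 0.996 and 0.992), and the intervals of the fold, 0.0628 to 13.7 and 0.0629 to 14.1, leave large changes possible. Without replicate 3 of 12 h all remaining 12 h counts were 0.

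miR-101-5p had 0, 7 and 6 counts in the replicates of 0 h, 0, 20 and 14 in those of 5 h, and 27, 48 and 0 in those of 12 h. A library with 0 counts occurred at each time. The log2 change was 1.00 (SE 2.06) at 5 h and 2.08 (SE 2.11) at 12 h (edgeR adjusted p = 0.996 and 0.974), with intervals of the fold from 0.100 to 40.0 and from 0.197 to 91.1. These intervals reflect the spread between libraries, and the libraries at 0 were not the shallowest at every time (replicate 1 of 0 h, with 15121491 counts, had 0). Without replicate 2 of 5 h the change at 5 h was -0.23.

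In all, 6 of the 7 members passed the filter on low counts, and miR-26a-2-3p did not. The members were counted against all 701 tested rows. At 5 h against 0 h 0 of 6 members were called, beside 1.57% of all rows (1.43% higher and 0.143% lower). At 12 h against 0 h it was again 0 of 6, beside 1.43% of all rows (0.999% higher and 0.428% lower). Between 12 h and 5 h it was 0 of 6, beside 0.571% of all rows (0.143% higher and 0.428% lower). Testing the 3 times jointly called 0 of 6 members and 1.71% of all rows. At an unadjusted p under 0.05 the members numbered 0, 1 and 1 in the 3 comparisons, the 1 being miR-26a-1-3p each time. Of all rows 5.99%, 7.28% and 6.13% were under that p in the 3 comparisons. In the test over all times 0 members were under it, and the share of all rows was not counted there. DESeq2 also called 0 members in each, although it gave miR-26a-1-3p no adjusted p at 5 h against 0 h, and 0 of the 3 abundant arms, the members held by the deposited log2 table, were called there by limma. With shares this low among all rows, 0 of 6 is close to the background.

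Groups that did not overlap were found for 0 of 6 members at 5 h (10.8% of all rows), for 1 of 6 at 12 h against 0 h (12.1%) and for 0 of 6 between 12 h and 5 h (12.8%). The median log2 change over the tested members was -0.07, -0.10 and -0.05, beside 0.03, 0.01 and -0.03 over all rows tested.

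**Figure D3:**
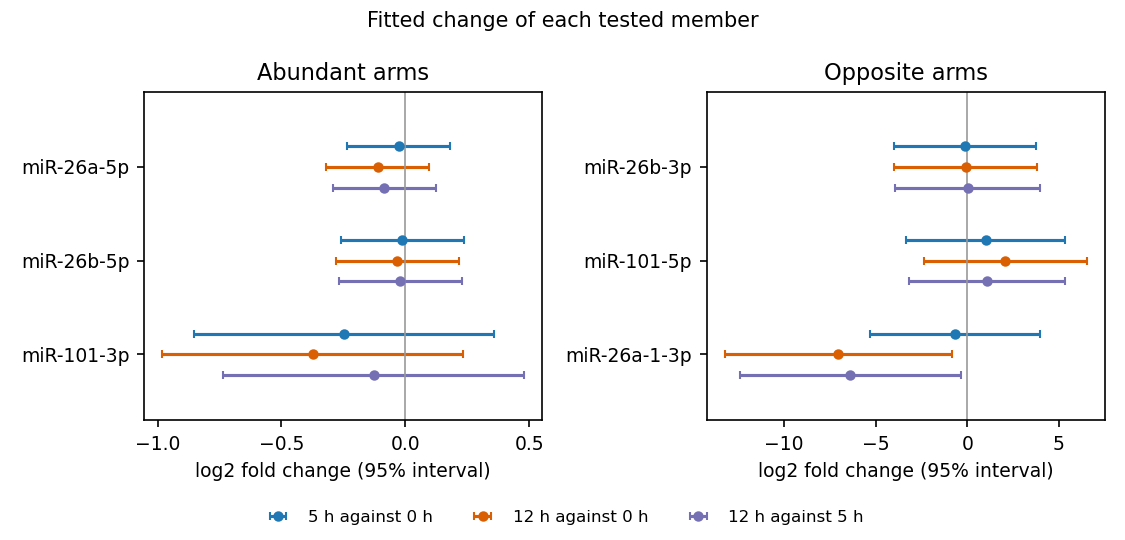
Log2 fold change of the 6 tested members with 95% intervals in the 3 comparisons, abundant arms on the left and opposite arms on the right, on axes of different range. Each name is drawn from its row of highest total. The drawn intervals of the abundant arms all span 0 and stay within -1 and 1. Those of the opposite arms reach beyond 3 on at least 1 side. The MIR101-1 row of miR-101-3p, not drawn, had an interval from -1.11 to 0.32 at 12 h against 0 h. The fitted value of miR-26a-1-3p at 12 h depends on the prior count, since that group is at 0.

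**Figure D4:**
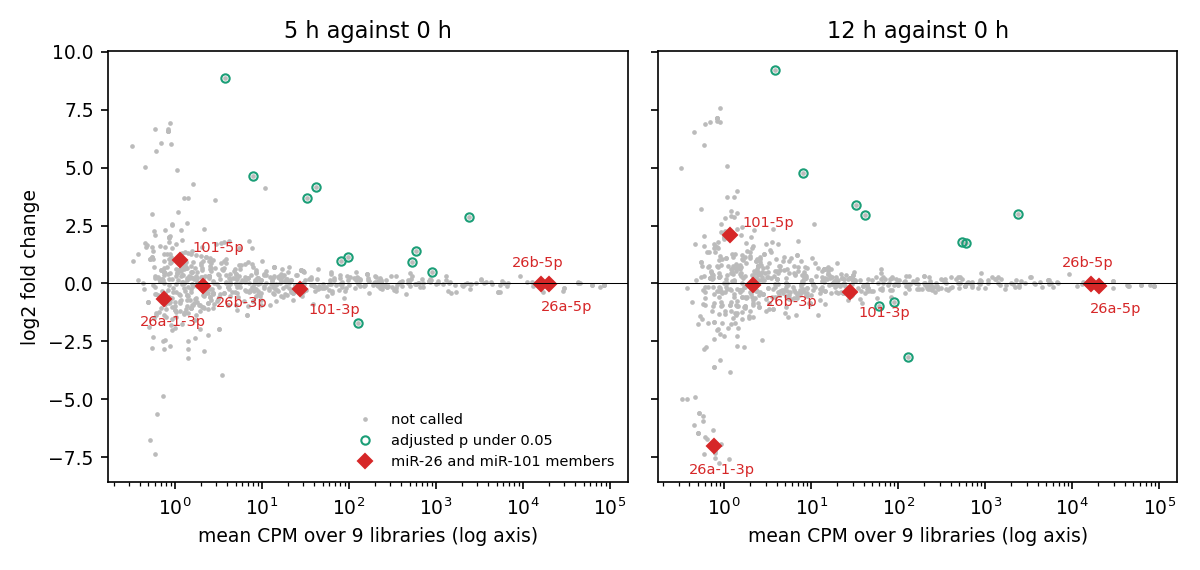
Log2 fold change against mean CPM (log axis) for the 701 tested rows at 5 h and 12 h against 0 h. Members are red diamonds and rows called at an adjusted p under 0.05 are green circles, 11 at 5 h and 10 at 12 h. The abundant miR-26 arms lie close to 0 at the right end of the cloud and the opposite arms in its wide left end.

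Other miRNAs reported to repress EZH2 were examined as a list of 13, the let-7 family, miR-98-5p, miR-138-5p, miR-124-3p, miR-214-3p and miR-217-5p. Of these, 10 were tested and 0 were called by edgeR in any of the 3 comparisons, beside 1.57%, 1.43% and 0.571% of all rows. At an unadjusted p under 0.05 there were 1, 1 and 2 of 10, beside 5.99%, 7.28% and 6.13% of all rows. The median log2 change was -0.01 at 5 h, -0.08 at 12 h and -0.04 between them. The most abundant were let-7a-5p, with 90470 ± 12011, 86070 ± 6286 and 83053 ± 5415 CPM at the 3 times, let-7f-5p, with 45755 ± 6007, 46254 ± 3582 and 42629 ± 2923 CPM, and let-7g-5p, with 43164 ± 4872, 44679 ± 4248 and 41358 ± 1612 CPM (SD, n = 3). miR-124-3p and miR-217-5p had 0 counts in all libraries. EZH2 itself was not measured in these libraries.

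The pattern over the 9 libraries was compared with that of 117 other mature miRNAs of at least 100 CPM, by Pearson's r of log2 CPM, as a description. miR-9-3p was the most alike to miR-26a-5p (r = 0.89, Spearman's rho 0.92) and to miR-26b-5p (r = 0.73, rho 0.75). Without the 2 libraries farthest from the median of the miR-26 arm compared, these r were 0.76 and 0.53. Next for miR-26a-5p came miR-142-5p (r = 0.67, and 0.10 without the 2) and let-7f-5p (0.63, and 0.25 without the 2). For miR-26b-5p they were let-7a-5p (0.70, and 0.02 without the 2) and miR-30e-3p (0.68, and 0.35 without the 2). miR-26a-5p and miR-26b-5p had r = 0.73 with each other (rho 0.75). This r was 0.76 without the 2 libraries farthest from the median of miR-26a-5p. For this pair the 2 farthest from the median of miR-26b-5p were not left out. Whether the relation rests on those libraries was therefore not tested. All share the library totals and scaling factors.

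Between miR-101-3p and the miR-26 arms r was 0.04 for miR-26a-5p (rho -0.07) and -0.22 for miR-26b-5p (rho -0.05). Without the 2 libraries farthest from the median of the miR-26 arm, r was 0.53 and -0.71, so neither value was stable. miR-101-3p was most like miR-29c-3p (r = 0.86, rho 0.47), miR-29a-3p (r = 0.63, rho 0.42) and miR-95-3p (r = 0.60, rho 0.72). Without the 2 libraries farthest from its median, r with miR-29c-3p was -0.01 and with miR-29a-3p -0.35, so both relations rest on those libraries. With miR-95-3p it was 0.87.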

How the data were processed

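Small RNA libraries of 9 Jurkat samples, 3 per time, were analysed; the labels give each sample's time and replicate number and no batch. The authors deposited raw counts per pair of precursor and mature miRNA and a table of log2 normalised values (430 rows, each value log2 of a count over 1 library factor, plus 1, as tested on the files to within 5.05e-09). The submitters' processing notes name the GRCh38.p13 build and DESeq2; the aligner and counting tool were not given in the sources used here. RNA was column-purified and libraries made with RealSeq kits, per the labels' protocols. Without molecular identifiers a read need not be a separate molecule, so the limit of 3 counts covers counting error only.

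Of 1214 rows above 0, 701 (626 mature names) passed filterByExpr (minimum count 10, minimum total 15). Counts were TMM-scaled and fitted in edgeR 4.0.16 (R 4.3.3) with 1 mean per time over all libraries; calls had a Benjamini-Hochberg adjusted p under 0.05 over all rows, and SEs come from the quasi-likelihood test. DESeq2 1.42.0 and limma 3.58.1 (deposited log2 values) were alternatives, with other scalings, filters, a replicate block, 1 row per mature name and libraries left out. No 2 libraries of the same time were duplicates: chi-square over degrees of freedom was 83.6 or more. Libraries of different times were not compared in this way. Log2 CPM used a prior count of 2. Sequences and hairpin positions are from RefSeq (GRCh38.p14) and gene overlaps from GENCODE 29 (GRCh38); patch releases share chromosome coordinates. Named were all members, miRNAs sharing a seed, up to 3 miRNAs most alike in pattern to each abundant arm and up to 3 per list, with miR-132-3p as a check. The members and lists were chosen with earlier results of these data known. Figures used Python 3.11.15 and matplotlib 3.10.9.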

Additional observations from a re-analysis of the deposited data

How the results depend on the processing

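In each of the 18 alternatives and in all 4 tests, 0 members were called, the lowest adjusted p being 0.182 (DESeq2, miR-26a-1-3p at 12 h against 0 h); limma and the stricter filter tested only the 3 abundant arms, and DESeq2 gave miR-26a-1-3p no adjusted p at 5 h against 0 h. Deviations of same-numbered libraries correlated at -0.03 to 0.06 over the 701 tested rows. No pairing by replicate number was seen there, but only 139 of these rows reached 100 CPM, and noise in low rows could hide one. With the replicate block 0 members were called as well. Calls over all rows went from 11 to 13, 10 to 11, 4 to 11 and, over all times, 12 to 21. With no filter they were 17, 11, 12 and 21, and without replicate 1 of 12 h the 12 h against 5 h calls numbered 10. The over-all-times calls numbered 7 without replicate 2 of 12 h and 8 without the shallowest library of 0 h and of 12 h.

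Signs near 0 were not stable. With library totals as the only scaling, the log2 change at 5 h was 0.032 for both rows of miR-26a-5p and 0.047 for miR-26b-5p, that of miR-26b-5p at 12 h was 0.022, and that of miR-26b-3p between 12 h and 5 h was -0.085. Without the shallowest library of 0 h and of 12 h, the 5 h changes were 0.0094 and 0.0098 for the rows of miR-26a-5p and 0.10 for miR-26b-5p; miR-26b-5p changed by 0.11 at 12 h and by 0.0043 between 12 h and 5 h, and miR-26b-3p by -7.75, a fitted value against a group at 0. Between 12 h and 5 h, miR-26b-5p was at 0.027 with the stricter filter and 0.012 with 1 row per mature name, and miR-26b-3p at -0.91 with the replicate block.

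With each library left out in turn, the 5 h changes ran from -0.13 to 0.0043 and from -0.13 to 0.0047 for the rows of miR-26a-5p, from -0.18 to 0.10 for miR-26b-5p, from -1.42 to 0.46 for miR-26b-3p and from -0.23 to 1.80 for miR-101-5p. At 12 h they ran from -0.12 to 0.083 for miR-26b-5p and from -7.77 to 0.51 for miR-26b-3p. Between 12 h and 5 h they ran from -0.092 to 0.12 for miR-26b-5p, from -7.65 to 1.26 for miR-26b-3p, and from -0.45 to 0.18 and -0.34 to 0.11 for the MIR101-1 and MIR101-2 rows of miR-101-3p.

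With precursor rows summed, miR-26b-5p made up 28.4%, 28.6% and 29.6% of the miR-26 counts, and miR-101-3p 0.00573% and 0.00507% of all counts at 0 h and 5 h in place of 0.00486% and 0.00426%, since names with several rows then count more than once. The cause of the other shifts was not tested. The opposite arms had few counts and wide spread between libraries, and their zeros did not follow depth: the shallowest library had 41 counts of miR-26b-3p.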

Other observations

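The opposite arms of MIR26B and MIR101-1 appeared mostly in different libraries. The 3 libraries with 0 counts of miR-101-5p, replicate 1 of 0 h, replicate 1 of 5 h and replicate 3 of 12 h, held the 3 highest counts of miR-26b-3p, at 57, 49 and 41. The 4 libraries with 0 counts of miR-26b-3p, replicate 3 of 0 h, replicate 2 of 5 h and replicates 1 and 2 of 12 h, held 6, 20, 27 and 48 counts of miR-101-5p. Both arms were present in replicate 2 of 0 h (39 and 7 counts) and replicate 3 of 5 h (28 and 14). This was noticed after the values were seen, and no test was made.

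miR-138-5p, from the list of miRNAs reported to repress EZH2, stood at 13.6 ± 0.818 CPM in control cells, 10.9 ± 1.88 after 5 h and 22.1 ± 5.68 after 12 h (SD, n = 3, on the row of highest total) and was not called (log2 change 1.02, SE 0.34, edgeR adjusted p = 0.491 between 12 h and 5 h). The groups of 12 h and 5 h did not overlap, as in 12.8% of all rows, and this miRNA was named after its values were seen.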
